A study of Mus musculus with 17 samples.

Results

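The 10 genes described here form the core of the mouse circadian clock: Arntl, Clock, Per1, Per2, Per3, Cry1, Cry2, Nr1d1, Nr1d2 and Dbp. They were chosen by name, as the activators, the repressors and a classical output of the loop, out of 46073 genes in each deposited file. All 10 passed a filter on low values (at least 0.5 FPKM in at least 3 libraries), as did 19064 genes in all. FPKM is fragments per kilobase of transcript, scaled to the mapped reads, a level already divided by transcript length, so levels can be set side by side between genes.

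The study asked how excess miR-211 alters the mouse forebrain and what follows when its transgene is shut off. Polyadenylated RNA was sequenced from the dissected frontal cortex of male FVB/N mice, killed under isoflurane by cervical dislocation. The dTgDox group (n = 3) carried both the CamK driver and the responsive miR-211 transgene, genotype dTg-211, and received doxycycline for 4 days. The dTg group (7 libraries, 6 of them used) had the same genotype with no doxycycline. The Ct group (n = 6) carried the CamK driver alone and no doxycycline. As background, a CamK driver of a Tet-off pair is active in excitatory neurons of the forebrain and makes a transactivator there, and doxycycline keeps that protein off the promoter of the responsive transgene. No Ct mice received doxycycline, so an effect of the drug and of shutting off the transgene cannot be told apart. The dTgDox libraries also differed from both other groups in tissue markers, given below. An effect of tissue content cannot be told apart from those of drug and transgene. The labels used here give neither ages nor an hour of dissection, nor do they say whether each library came from a separate mouse, so p-values measure the spread between libraries.

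In the mouse clock the product of Arntl, BMAL1, pairs with CLOCK on E-box DNA and switches on the Per, Cry, Nr1d and Dbp genes. PER and CRY proteins then block that pair, REV-ERB proteins made from Nr1d1 and Nr1d2 repress Arntl through RORE sites that ROR proteins activate, and DBP acts on D-box sites. In cycling tissues Arntl RNA peaks when Dbp, Nr1d1 and Per3 RNAs are low. A change of sampling hour can therefore move Arntl one way and those 3 genes the other, though not at every hour. Per1 and Per2 also respond to glucocorticoids and to neuronal firing.

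The overexpressed microRNA and its match among the clock genes were read first, because direct targets often carry a match to its seed. The mature strand, from RefSeq at chr7:64205831-64205852 on the plus strand of GRCm38.p6, is shown with its seed, bases 2 to 8, in capitals. Only 1 of the 10 genes, Clock, held a match of at least 7 bases (8mer, 7mer-m8 or 7mer-A1) in its longest annotated 3'UTR, at chr5:76215047-76215075 on the minus strand of GRCm38. Its capitals mark the complement of the seed. For comparison, 24.8% of 14333 tested genes with an annotated 3'UTR held such a match.
mmu-miR-211-5p: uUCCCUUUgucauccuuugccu
Clock 3'UTR site: tattactgagaAAAGGGAggataagtgtg
The Clock level did not differ detectably in any comparison, as given further on, and production of miR-211 itself was not measured in these polyA libraries.

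The control elements that tie the arms together were looked up in RefSeq promoter windows of GRCm38.p6, which run from 250 bases before to 50 bases after each start and were given for 9 of the 10 genes (not Per2). Both strands were searched for the E-box CACGTG, the E-box variant CACGTT, the D-box TTATGTAA or TTACGTAA, and the RORE TAGGTCA or TGGGTCA. The E-box was in Per1 and Cry1, against 8.09% of all genes with a window, and the variant was in Cry1, Cry2 and Nr1d1, against 5.44%. A D-box was in Per3 (1.23% of all genes) and a RORE in Arntl (7.35%). The stretches around the matches are shown because they hold the letters by which the loop's factors are known to act, with the matched letters in capitals (AACGTG is CACGTT read on the other strand).
Per1 at chr11:69098763-69098808, plus strand, E-box: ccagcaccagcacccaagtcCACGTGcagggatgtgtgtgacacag
Cry1 at chr10:85185089-85185153, minus strand, E-box variant and E-box: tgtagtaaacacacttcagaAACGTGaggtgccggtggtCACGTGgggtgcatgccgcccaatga
Cry2 at chr2:92434210-92434255, minus strand, E-box variant: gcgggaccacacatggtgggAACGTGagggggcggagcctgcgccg
Nr1d1 at chr11:98775380-98775425, minus strand, E-box variant: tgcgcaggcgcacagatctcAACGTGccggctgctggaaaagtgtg
Per3 at chr4:151044796-151044890, minus strand, 2 D-boxes: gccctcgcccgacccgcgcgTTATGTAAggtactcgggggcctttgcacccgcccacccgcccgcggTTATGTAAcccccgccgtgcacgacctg
Arntl at chr7:113207531-113207557, plus strand, RORE after the start: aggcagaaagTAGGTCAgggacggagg
Clock, Nr1d2 and Dbp held none of these letters in their windows. A match is a run of letters in this window and not evidence that a factor was bound.

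Depth estimated from the value of 1 read was 21.1 to 30.3 M reads per library, and 15762 to 16085 genes reached 1 FPKM. The file labelled NTg held the same 46073 values as the file labelled dTg replicate 1, and that library had a summed cerebellar marker level of 3790 FPKM, against at most 156 FPKM in the other 15. It was left out of the fits, and the calls lost when it was included are given at the end. The cortical excitatory markers were present in all 15 libraries (5 genes, summed 537 to 573 FPKM in dTgDox, 525 to 714 FPKM in dTg and 514 to 761 FPKM in Ct). Of 6 markers of the suprachiasmatic nucleus, the brain's master clock, Six6 was at most 0.0168 FPKM and listed at 0 in 12 libraries, and Lhx1 was at most 0.352 FPKM. Vip, which cortical interneurons also make, was detected at 12.2 to 17.3 FPKM in dTgDox, against 26.7 to 42.7 FPKM in dTg and 25.1 to 37.6 FPKM in Ct. Rgs16 was at 2.9 to 5.0 FPKM in dTgDox, 2.8 to 4.6 FPKM in dTg and 2.5 to 3.4 FPKM in Ct. Avp was at 0.79 to 1.49 FPKM in dTgDox, 0.16 to 0.58 FPKM in dTg and 0.17 to 2.02 FPKM in Ct. Prok2 was at most 0.984 FPKM.

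Several tissue markers differed between dTgDox and both other groups, and some libraries of dTg and Ct stood apart from their own group. The 8 olfactory bulb markers summed to 36.7 to 45.6 FPKM in dTgDox, 30.9 to 225 FPKM in dTg and 26.2 to 389 FPKM in Ct. The 10 hippocampal markers summed to 236 to 291 FPKM in dTgDox, against 38.9 to 62.9 FPKM in dTg and 35.2 to 58.0 FPKM in Ct, and 8 of the 9 that could be tested rose in both comparisons. Of these 5 cortical excitatory markers, Tbr1 fell, Neurod6 rose and 3 did not pass in either comparison. Tbr1 was at 14.4 to 23.99 FPKM in dTgDox, against 37.9 to 51.5 FPKM in dTg and 37.8 to 60.7 FPKM in Ct. Neurod6 was at 86.9 to 97.5 FPKM in dTgDox, against 37.7 to 56.3 FPKM in dTg and 30.04 to 60.3 FPKM in Ct. The 5 astrocyte markers summed to 420 to 585 FPKM in dTgDox, 282 to 346 FPKM in dTg and 252 to 339 FPKM in Ct. The 6 oligodendrocyte markers summed to 2630 to 3950 FPKM in dTgDox, 933 to 2550 FPKM in dTg and 1030 to 2260 FPKM in Ct. Striatal marker sums were 80.8 to 119 FPKM in dTgDox, against 106 to 484 FPKM in dTg and 129 to 911 FPKM in Ct, and choroid plexus sums were 26.6 to 1980 FPKM in dTgDox, against 1.92 to 127 FPKM in dTg and 3.49 to 93.8 FPKM in Ct. In both comparisons 3 of the 5 astrocyte markers rose and 1, Aldh1l1, fell, while none of the oligodendrocyte, striatal or olfactory bulb markers passed the test (0 of 6, 0 of 8 and 0 of 8). Of the choroid plexus markers 1 of 5, Kl, rose in both. Of the cerebellar markers that could be tested 1 of 7, Car8, fell in both, as did Vip, 1 of 4 on the suprachiasmatic list. The part of all these markers in the clock gene results was not tested. In bulk tissue, fewer cells of a type and less RNA per cell cannot be told apart.

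The 10 genes spanned about an order of magnitude in level, and the order was much the same in the 3 groups. Nr1d1 was the highest in every one of the 15 libraries, with mean levels of 53.9 ± 1.38 FPKM in dTgDox, 66.8 ± 8.35 FPKM in dTg and 59.6 ± 8.55 FPKM in Ct (SD). Dbp, Nr1d2 and Cry2 followed, and their order was not fixed: in Ct, Nr1d2 was above Cry2 in 3 of 6 libraries, and in dTg, Cry2 was above Nr1d2 in 4 of 6. Clock, Per3 and Arntl had middle levels, and Per3 and Arntl changed places between groups, Per3 being the higher mean in dTgDox and Ct and Arntl in dTg. Cry1 had the lowest mean in each group. Per1 stood below the top 4 genes in dTg and Ct, above Clock in 5 of 6 dTg and 6 of 6 Ct libraries, and was level with Clock in dTgDox, where Clock was higher in 1 of 3 libraries.

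**Figure D1:**
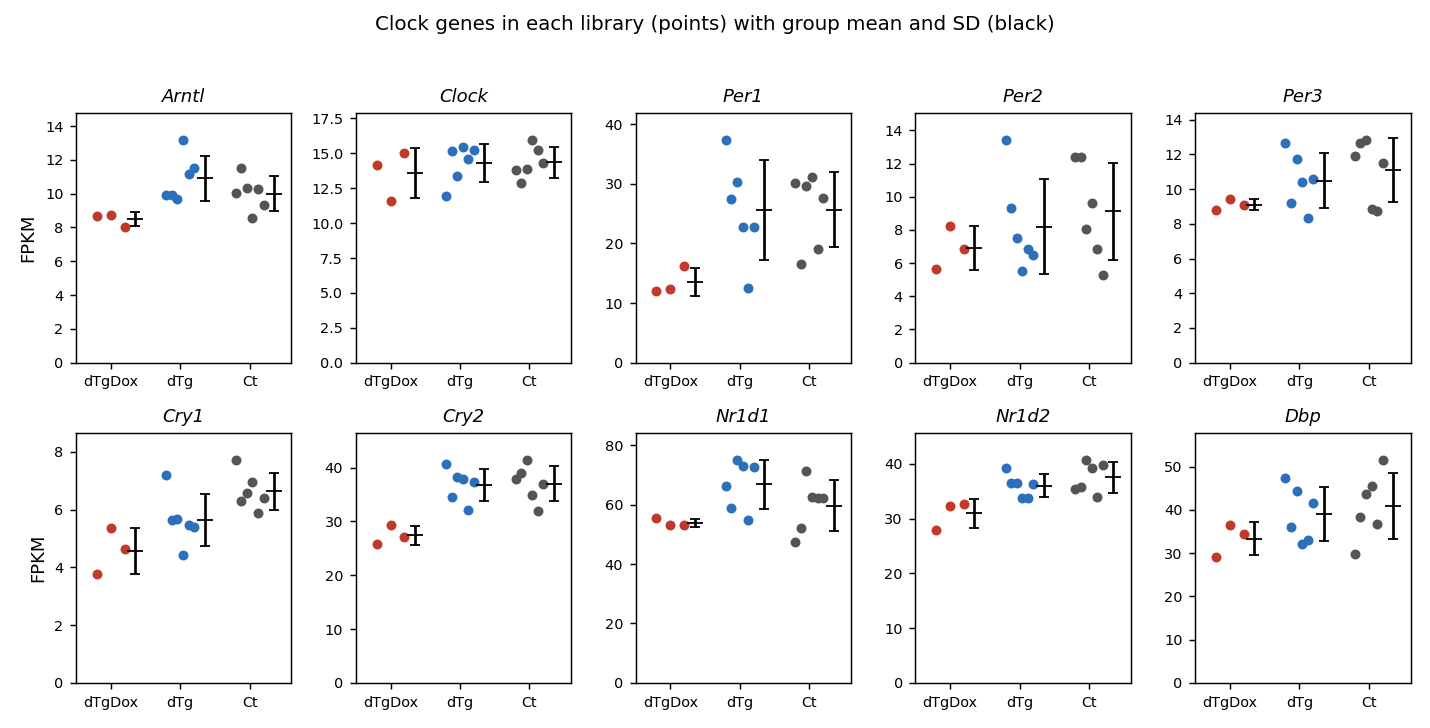
FPKM of each clock gene (vertical axis, from 0) in the dTgDox, dTg and Ct libraries; a point is a library and the black bar the group mean and SD. All 3 dTgDox points of Cry2 and Nr1d2 lie below all points of the other groups, while those of Per2 lie among them.

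The first comparison, dTg with Ct, asks what the miR-211 transgene adds to the driver. No clock gene changed: limma called 0 of the 10 and 0 of 19064 genes at an adjusted p under 0.05 (0% of genes tested), and 607 genes (3.18%) had an unadjusted p under 0.05. The differences of the 10 genes ran from -0.22 for Cry1 to 0.16 for Nr1d1 in log2(FPKM + 0.5), with 8 of 10 below 0 and a median of -0.05, against a median of -0.0045 over all genes tested.
Cry1, a cryptochrome and a strong repressor of BMAL1 and CLOCK, was the only clock gene with an unadjusted p under 0.05. It stood at 4.41 to 7.21 FPKM in dTg (median 5.56) and at 5.88 to 7.72 FPKM in Ct (median 6.48). Of the 6 dTg libraries, 5 lay below every Ct library and dTg replicate 2 lay among the upper Ct values. The difference was -0.22 (SE 0.10, unadjusted p = 0.047, adjusted p = 0.9999).
The intervals of the other genes show what the comparison could miss. For Clock the 95% interval of the log2 difference was -0.18 to 0.16 and for Cry2 -0.15 to 0.14, whereas for Per1 it was -0.54 to 0.46 and for Per2 -0.62 to 0.34. Per1 and Per2 were also the most variable within a group, with coefficients of variation of 32.7% and 35.1% in dTg and 24.3% and 32.1% in Ct, against 9.73% and 7.71% for Clock.

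The other comparisons set the doxycycline-treated mice against untreated mice of the same genotype and against the driver alone. They share the dTgDox libraries, so they are given side by side and are not independent. Cry2 fell in both. Arntl fell against dTg, and Cry1, Nr1d2 and Per1 fell against Ct. No clock gene rose. Against dTg, 2 of 10 clock genes fell, beside 9.22% of all genes tested that fell (18.9% called in either direction), and against Ct 4 of 10 fell, beside 9.85% (19.7% in either direction). The difference was below 0 for all 10 genes in both, with medians of -0.25 against dTg and -0.28 against Ct, where the medians over all genes were -0.0054 and -0.0079. With libraries scaled to the same upper quartile, the genes called against Ct were 2372 higher and 1481 lower in dTgDox, where the unscaled values gave 1880 higher and 1878 lower, and the clock genes called there were 3, all lower.
All 3 dTgDox libraries lay below all dTg libraries for Arntl, Cry2 and Nr1d2, 3 of 10 genes beside 10.9% of all genes. They lay below all Ct libraries for Per1, Cry1, Cry2 and Nr1d2, 4 of 10 beside 11.8%. Cry2 and Nr1d2 were below both groups, 2 of 10 beside 8.06%.

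**Figure D2:**
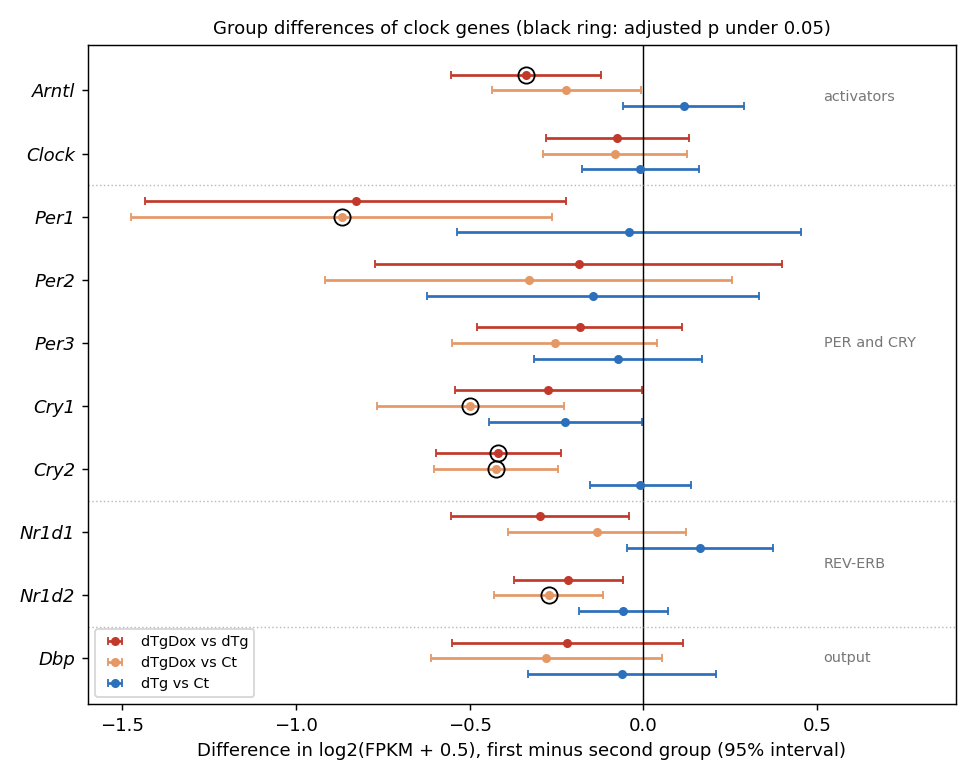
Difference in log2(FPKM + 0.5) of each clock gene, first minus second group, with its 95% interval, for dTgDox vs dTg, dTgDox vs Ct and dTg vs Ct; rings mark an adjusted p under 0.05. All points of both doxycycline comparisons lie left of 0 in every arm, Cry2 carries 2 rings, and the intervals of Per1 and Per2 are the widest.

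The activator arm was represented by Arntl and Clock. Arntl (ENSMUSG00000055116, chr7:113207465-113314126, plus strand, GRCm38), which encodes BMAL1, had 8.69, 8.76 and 8.00 FPKM in the dTgDox libraries. It had 9.71 to 13.2 FPKM in dTg (median 10.6) and 8.54 to 11.5 FPKM in Ct (median 10.1). The dTgDox libraries were below every dTg library, and Ct replicate 4 fell among them. Arntl fell by 0.34 on the log2 scale against dTg (SE 0.10, adjusted p = 0.030), and the difference from Ct was -0.22 (SE 0.10, adjusted p = 0.14). The fall against dTg lost its call without dTg replicate 7 or without any of the 3 dTgDox replicates (adjusted p up to 0.126). It was also lost when dTg replicates 5 to 7, whose file headers share a number whose meaning is not given, were reduced to 1 (adjusted p = 0.091).
Clock (ENSMUSG00000029238, chr5:76209868-76304792, minus strand), BMAL1's partner, had 14.2, 11.6 and 15.03 FPKM in dTgDox. Its dTg levels were 11.9 to 15.5 FPKM (median 14.9) and its Ct levels 12.9 to 15.99 FPKM (median 14.1), so the groups overlapped. The log2 differences were -0.07 from dTg (95% interval -0.28 to 0.13, adjusted p = 0.66) and -0.08 from Ct (-0.29 to 0.13, adjusted p = 0.61).

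Among the Period genes, whose proteins carry the cryptochromes into the nucleus, Per1 showed the largest difference and the largest spread. Per1 (ENSMUSG00000020893, chr11:69095217-69109960, plus strand) had 12.1, 12.4 and 16.3 FPKM in dTgDox. It had 12.6 to 37.4 FPKM in dTg (median 25.1) and 16.5 to 31.2 FPKM in Ct (median 28.6). All dTgDox values were below every Ct value, and dTg replicate 6 lay among the dTgDox values. Per1 fell by 0.87 on the log2 scale against Ct (SE 0.28, adjusted p = 0.045), and the difference from dTg was -0.83 (SE 0.28, adjusted p = 0.056). The call against Ct was lost in 10 of the 15 fits that left out 1 library (adjusted p up to 0.151), and without dTg replicate 6 the fall against dTg was 1.01 (adjusted p = 0.0060).
Per2 (ENSMUSG00000055866, chr1:91415982-91459324, minus strand) had 5.64, 8.26 and 6.86 FPKM in dTgDox, 5.52 to 13.5 FPKM in dTg (median 7.20) and 5.29 to 12.4 FPKM in Ct (median 8.85). The groups overlapped, with the high end held by dTg replicate 2 and by Ct replicates 1 and 2. Its log2 differences, -0.19 from dTg and -0.33 from Ct, had intervals of -0.77 to 0.40 and -0.92 to 0.26 (adjusted p = 0.70 and 0.45).
Per3 (ENSMUSG00000028957, chr4:151003652-151044665, minus strand), the gene with D-boxes in its window, had 8.80, 9.45 and 9.07 FPKM in dTgDox, 8.35 to 12.7 FPKM in dTg (median 10.5) and 8.73 to 12.9 FPKM in Ct (median 11.7). The dTgDox libraries sat at the low end of both ranges without leaving them. The differences were -0.18 from dTg (SE 0.14, adjusted p = 0.40) and -0.25 from Ct (SE 0.14, adjusted p = 0.22).

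Among the cryptochromes, Cry2 gave the steadier result. Cry2 (ENSMUSG00000068742, chr2:92403646-92434043, minus strand) had 25.8, 29.3 and 27.2 FPKM in dTgDox. It had 32.2 to 40.6 FPKM in dTg (median 37.7) and 32.0 to 41.5 FPKM in Ct (median 37.4). The highest dTgDox library was below the lowest library of either other group. Cry2 fell by 0.42 on the log2 scale against dTg (SE 0.08, adjusted p = 0.0031) and by 0.42 against Ct (SE 0.08, adjusted p = 0.0026), and both calls held in every alternative tried.
Cry1 (ENSMUSG00000020038, chr10:85131700-85185064, minus strand) had 3.76, 5.36 and 4.62 FPKM in dTgDox, all below the 6 Ct libraries, with 2 of the 3 inside the dTg range given above. It fell by 0.50 on the log2 scale against Ct (SE 0.13, adjusted p = 0.013), and the difference from dTg was -0.27 (SE 0.13, adjusted p = 0.15). Without dTgDox replicate 1, the lowest library, the fall against Ct was 0.38 with an adjusted p of 0.093.

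The REV-ERB genes encode nuclear receptors that bind heme and repress Arntl. Nr1d2 (ENSMUSG00000021775, chr14:18204054-18239127, minus strand) had 28.0, 32.4 and 32.6 FPKM in dTgDox, 33.7 to 39.3 FPKM in dTg (median 36.4) and 34.0 to 40.8 FPKM in Ct (median 37.5). No dTgDox library reached the lowest library of the other groups. It fell by 0.27 on the log2 scale against Ct (SE 0.07, adjusted p = 0.018), and the difference from dTg was -0.22 (SE 0.07, adjusted p = 0.054). Without dTgDox replicate 1 the fall against Ct was 0.20 with an adjusted p of 0.124.
Nr1d1 (ENSMUSG00000020889, chr11:98767932-98775333, minus strand) had 55.5, 53.0 and 53.2 FPKM in dTgDox, the tightest group of any clock gene with a coefficient of variation of 2.56%. It had 54.8 to 75.1 FPKM in dTg (median 69.5) and 47.4 to 71.3 FPKM in Ct (median 62.3), and the groups overlapped. The differences were -0.30 from dTg (SE 0.12, adjusted p = 0.10) and -0.13 from Ct (SE 0.12, adjusted p = 0.49).
Dbp (ENSMUSG00000059824, chr7:45705088-45710203, plus strand), a transcription factor that is among the most strongly cycling RNAs of mouse tissues, had 29.1, 36.4 and 34.4 FPKM in dTgDox. It had 32.2 to 47.5 FPKM in dTg (median 38.7) and 29.9 to 51.6 FPKM in Ct (median 41.1). The dTgDox values fell inside or just below the other ranges, and the differences were -0.22 from dTg (95% interval -0.55 to 0.11, adjusted p = 0.37) and -0.28 from Ct (-0.61 to 0.05, adjusted p = 0.24).

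As background, Arntl and its opponents are near antiphase in a running clock, so their ratio within a library can change with the hour. The Dbp to Arntl ratio was 3.34 to 4.30 in dTgDox (mean 3.93 ± 0.52), 2.44 to 4.78 in dTg (3.66 ± 0.90) and 2.98 to 5.53 in Ct (4.16 ± 1.06, SD). The Nr1d1 to Arntl ratio was 6.06 to 6.65 in dTgDox, 4.90 to 7.73 in dTg and 4.51 to 7.31 in Ct. The Per3 to Arntl ratio was 1.01 to 1.13 in dTgDox, 0.747 to 1.28 in dTg and 0.852 to 1.25 in Ct. The dTgDox libraries lay inside the range of both other groups in each of these ratios and in that of Per2 to Arntl (0.648 to 0.944 in dTgDox, 0.418 to 1.36 in dTg and 0.568 to 1.24 in Ct). In the doxycycline comparisons the differences of the activator and of the repressor arm were on the same side of 0. The activator arm was only Arntl and Clock. The Clock intervals crossed 0 in both comparisons, and Arntl passed only against dTg. A difference in sampling hour was not tested, since the labels used here give none.

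The same opposition was then looked for among libraries of one group, as deviations of log2(FPKM + 0.5) from the group mean over 15 libraries. Of 17 pairs of Arntl or Dbp with the other clock genes, 1 passed Benjamini-Hochberg adjustment in a two-sided permutation test within groups: Dbp with Nr1d2 (Pearson r = 0.822, adjusted p = 0.013; Spearman rho = 0.796, adjusted p = 0.020). The Pearson r was 0.837 without the 2 libraries farthest from the median of Dbp. Within dTg it was 0.897 (n = 6, unadjusted exact permutation p = 0.0097, adjusted p = 0.165). Within Ct it was 0.780 (n = 6, unadjusted exact permutation p = 0.065, adjusted p = 0.395), so neither group alone passed adjustment. Libraries with a high Dbp level for their group had a high Nr1d2 level, and as background both genes are driven by BMAL1 and CLOCK in mouse tissues.
Arntl had a negative r with 7 of 9 genes. The strongest were Per1 (r = -0.608, rho = -0.682), Nr1d2 (-0.548 and -0.393), Cry1 (-0.527 and -0.525) and Dbp (-0.525 and -0.446), with an adjusted permutation p of 0.213 for each r, so none passed. With Per3, another gene of the opposite side of the cycle, the r was 0.137 (adjusted p = 0.81).
By likeness of the same deviations over 16185 genes, the 5 genes nearest to Dbp were Ciart (r = 0.860), itself a repressor of the clock, 1700003M07Rik (0.852), Rnf207 (0.841), Gm3828 (0.840) and Gm16397 (0.838). The 5 nearest to Arntl were Btbd9 (0.870), Abr (0.865), St8sia5 (0.864), E130311K13Rik (0.856) and Fam219a (0.856), none of them in the clock lists. These are descriptions over 15 libraries, whose tissue marker sums and depths differed as given above.

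**Figure D3:**
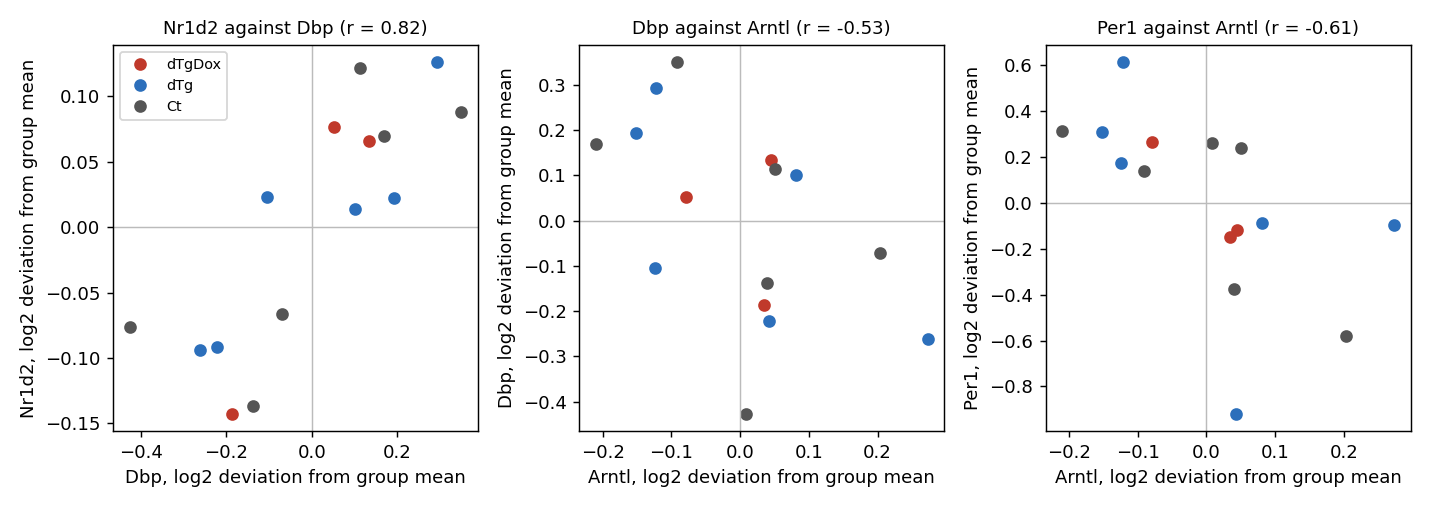
Deviation of log2(FPKM + 0.5) from the group mean in each of 15 libraries, for Nr1d2 against Dbp, Dbp against Arntl and Per1 against Arntl, with dTgDox, dTg and Ct libraries in colour. Nr1d2 follows Dbp over the pooled libraries (r = 0.82), and the downward trends with Arntl (r = -0.53 and -0.61) did not pass adjustment.

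A further 25 genes of the clock pathway were examined, and 0 changed between dTg and Ct. The 3 smallest p-values there were those of Csnk1a1, Fbxw11 and Btrc, with limma log2 differences of -0.09, -0.09 and -0.06 (unadjusted p = 0.068, 0.083 and 0.19, adjusted p = 0.9999 each). After doxycycline 2 rose and 8 fell against dTg, and 1 rose and 6 fell against Ct, beside 18.9% of all genes called against dTg (9.22% lower) and 19.7% against Ct (9.85% lower). The median differences were -0.12 from dTg and -0.12 from Ct, against -0.0054 and -0.0079 over all genes.
Among partners and loop repressors, 3 of 8 fell against dTg and 2 of 8 against Ct, and 0 rose, beside the 9.22% and 9.85% of all genes that fell. Ciart, the repressor of BMAL1 and CLOCK also called CHRONO, had 6.61, 9.06 and 9.46 FPKM in dTgDox, against 9.37 to 24.1 FPKM in dTg (median 18.0) and 11.8 to 27.0 FPKM in Ct (median 17.8). Of the dTg libraries, 1 lay among the dTgDox values and no Ct library did. Ciart fell by 0.9997 on the log2 scale against dTg (SE 0.32, adjusted p = 0.045) and by 1.05 against Ct (SE 0.32, adjusted p = 0.036), and these calls were lost in 13 and 10 of the 28 alternatives.
Rora and Rorb encode ROR activators of Arntl. Rorb, a receptor of cortical layer neurons, averaged 2.36 ± 0.10 FPKM in dTgDox, 4.19 ± 1.06 FPKM in dTg and 3.83 ± 0.86 FPKM in Ct (SD) and fell in both comparisons (-0.68 against dTg, adjusted p = 0.021; -0.58 against Ct, adjusted p = 0.046). Rora averaged 5.99 ± 1.28 FPKM in dTgDox, 8.47 ± 1.42 FPKM in dTg and 8.17 ± 1.26 FPKM in Ct and fell against dTg (-0.47, adjusted p = 0.043).
Of the PAR bZIP factors related to Dbp, Hlf had 38.3, 40.6 and 42.3 FPKM in dTgDox, below all dTg libraries (49.6 to 64.9 FPKM) and overlapping Ct (39.3 to 78.8 FPKM). It fell against dTg (-0.52, SE 0.17, adjusted p = 0.044), and the difference from Ct was -0.49 (adjusted p = 0.055).

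The kinases and ligases that set the life of PER and CRY proteins gave smaller differences between tighter groups. Csnk1e, the casein kinase 1 epsilon that marks PER for breakdown, averaged 41.1 ± 4.75 FPKM in dTgDox, 53.3 ± 3.77 FPKM in dTg and 53.2 ± 3.46 FPKM in Ct (SD), and fell by 0.38 against dTg and by 0.37 against Ct (adjusted p = 0.0042 and 0.0044). Btrc, a subunit of a ligase that takes up phosphorylated PER, fell by 0.20 against dTg and by 0.26 against Ct (adjusted p = 0.014 and 0.0027). Gsk3b, a kinase of several clock proteins, fell by 0.29 against Ct (adjusted p = 0.015). Csnk1a1, another casein kinase, rose by 0.26 against dTg (adjusted p = 0.0062). Timeless, known in mammals mostly for its work at replication forks, averaged 1.44 ± 0.45 FPKM in dTgDox, 2.76 ± 0.57 FPKM in dTg and 2.42 ± 0.62 FPKM in Ct and fell against dTg (-0.76, adjusted p = 0.017).
Among 5 outputs that cycle in many mouse tissues, Usp2 and Nampt went opposite ways. Usp2, a deubiquitinase, had 21.2, 22.6 and 23.5 FPKM in dTgDox, against 27.1 to 38.4 FPKM in dTg and 26.6 to 38.5 FPKM in Ct, with no overlap, and fell by 0.53 against dTg and by 0.49 against Ct (adjusted p = 0.0081 and 0.012). Nampt, the rate-limiting enzyme of NAD salvage, had 18.6, 18.8 and 18.8 FPKM in dTgDox, against 14.4 to 17.3 FPKM in dTg and 13.6 to 16.8 FPKM in Ct, and rose by 0.28 against dTg and by 0.28 against Ct (adjusted p = 0.016 and 0.013). These genes were measured in the same libraries whose tissue markers differed between groups, given above, and the part of the markers was not tested.

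**Figure D4:**
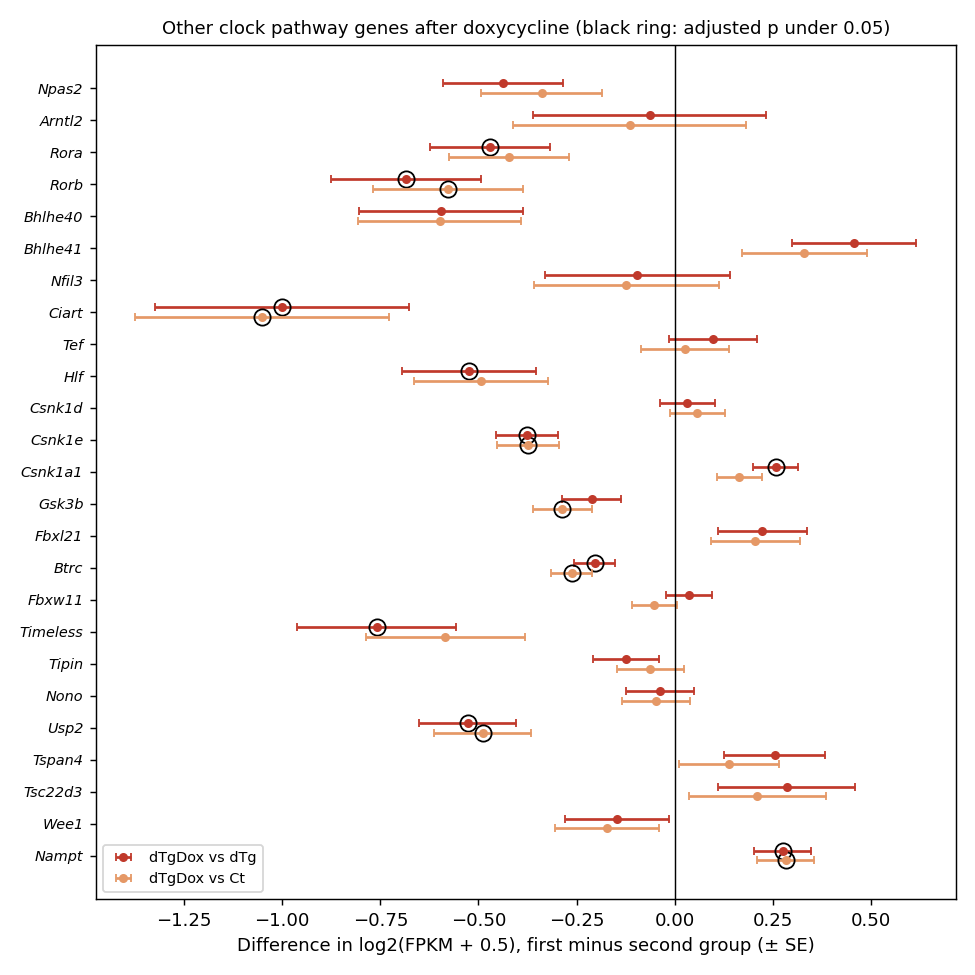
Difference in log2(FPKM + 0.5) with its SE for 25 further clock pathway genes, dTgDox vs dTg and dTgDox vs Ct; rings mark an adjusted p under 0.05. Ciart has the lowest value in both comparisons (-0.9997 against dTg and -1.05 against Ct), and Nampt is ringed to the right of 0 in both.

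The inputs of Per1 and Per2 were read beside them. The 15 immediate-early genes of neuronal activity summed to 170 to 197 FPKM in dTgDox, against 199 to 1160 FPKM in dTg and 338 to 637 FPKM in Ct, and 8 fell against dTg while 1 rose and 7 fell against Ct, beside 9.22% and 9.85% of all genes that fell. Fos, the classical one, had 4.73 to 5.07 FPKM in dTgDox, 7.70 to 78.7 FPKM in dTg and 11.6 to 42.1 FPKM in Ct (log2 differences of -2.14 from dTg and -2.14 from Ct, adjusted p = 0.038 and 0.037). Of 13 genes induced by glucocorticoids, 5 rose in both comparisons (Fkbp5, Plin4, Mt1, Mt2 and Zbtb16), while Cdkn1a fell in both and Klf9 against Ct. Of all genes, 9.65% rose against dTg and 9.86% against Ct. Fkbp5, a chaperone of the receptor, had 16.9 to 18.6 FPKM in dTgDox, 5.81 to 8.96 FPKM in dTg and 8.29 to 11.2 FPKM in Ct and rose by 1.19 against dTg and by 0.81 against Ct (adjusted p = 2.6e-05 and 0.00060). Per1 RNA was thus low in the dTgDox libraries, where most but not all activity genes were low and several glucocorticoid-induced genes high. Neither relation was tested.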

How the data were processed

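RNA was measured in 17 deposited files, 1 per sample, each with 1 value per Ensembl gene. The values behave as FPKM made by the authors: in the deposited FPKM, low levels of genes with 1 exon are whole multiples of a step inverse to gene length, which also gave the depth estimate (2062 genes). Read counts were not used here, so levels carry no counting interval. TopHat2 and DESeq are named per the submitters' processing notes, with versions and build not given in the sources used here. Symbols and coordinates came from GENCODE M21 (GRCm38), with a symbol for 45139 of 46073 identifiers, and miRNA and promoter sequences from RefSeq (GRCm38.p6).

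Log2(FPKM + 0.5) of 15 libraries was fitted in limma 3.58.1 (R 4.3.3) with 1 mean per group, a trend on mean level and robust moderation, and two-sided p-values were adjusted over all 19064 genes by Benjamini-Hochberg (threshold 0.05). The 0.5 added shrinks differences of low genes. The script was tested on simulated data. For dTgDox vs Ct it recovered 48% of 100 log2 changes of 0.5 and 92% of 100 log2 changes of 1. Changes of 0.5 or less can thus go uncalled. Correlations used 100000 permutations within groups, or all permutations within a group of 6 (SciPy 1.17.1). The genes, lists and tests were chosen with earlier results of these data known. Named were the 10 clock genes, each listed pathway gene called in any comparison or among its 3 smallest p-values, and the 5 genes most like Arntl and Dbp at a mean of at least 1 FPKM. Alternatives covered the libraries, pseudocount, filter, scaling, spread estimate and a replicate block. Fits on libraries chosen by the numbers in their header names were added after seeing the data. The NTg file was left out, since it repeats dTg replicate 1. Some listed pathway and marker genes were not analysed here, and those of the 25 analysed that the rule does not name appear only in the plot of pathway genes.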

Additional observations from a re-analysis of the deposited data

Results flagged for a closer look

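In the library deposited as dTg replicate 1 and again as NTg replicate 1, which no comparison used, 6 of the 10 clock genes stood above all 15 libraries compared, as did 28.5% of all 19064 genes tested. The levels were 13.3 FPKM for Arntl, 21.3 FPKM for Clock, 13.5 FPKM for Per3, 14.1 FPKM for Cry1, 75.7 FPKM for Nr1d1 and 68.6 FPKM for Nr1d2. Arntl, Per3 and Nr1d1 were within 1 FPKM of the highest other library, while Cry1 and Nr1d2 were well above it (7.72 FPKM and 40.8 FPKM in Ct). Cry2, at 30.7 FPKM, was below every dTg and Ct library, and Per1, Per2 and Dbp were inside the ranges of those groups. Its cerebellar marker sum of 3790 FPKM and its cortical excitatory sum of 198 FPKM stand beside these values, and their part was not tested.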

How the results depend on the processing

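The genes called between dTg and Ct were 0, or 1 with a pseudocount of 0.1, 4 with 1 library per header number, and 0 to 1 without 1 library. Against dTg the genes called in dTgDox were 3596, and 1537 with all 16 libraries, 1562 with the replicate block and 2077 to 3715 without 1 library (2077 without dTgDox replicate 1, 2155 without dTgDox replicate 3). Against Ct they were 3758, and 1504 with all 16 libraries, 2394 with the block, 2282 with the dTgDox libraries and only Ct replicates 4 to 6 and dTg replicates 3 to 7 (Ct and dTg libraries of like header numbers) and 2229 to 3872 without 1 library (2229 without dTgDox replicate 1, 2273 without dTgDox replicate 3). Clock genes called against dTg were 2, and 4 with the stricter filter, 5 with quality weights, 1 with the block and 1 to 5 without 1 library (5 without dTg replicate 6). Beside these, all genes called were 3389 of 15760 with the stricter filter and 4709 of 19064 with quality weights. Without dTg replicate 6 they were 3581 of 18996. Against Ct they were 4, and 1 with all 16 libraries, 2 with that same choice of libraries and 1 to 4 without 1 library (1 without dTgDox replicate 1). With 16 libraries fewer clock calls were left because the added library widened the shared spread (Nr1d2 adjusted p = 0.39, Cry1 adjusted p = 0.25, differences from Ct unchanged at -0.27 and -0.50). Per1 also lost its call against Ct with 16 libraries. Of the other pathway genes, Csnk1e, Btrc, Nampt, Ciart and Rorb then lost their calls in both doxycycline comparisons, and Hlf and Rora lost theirs against dTg. Pairs of correlated clock genes past adjustment were 1, and 0 within dTg and 0 within Ct. No called value reversed. For the 10 genes, 802 of the values under alternatives kept their side of the threshold, 12 gained a call and 26 lost one. These counts include pairs of gene and comparison without a call in the main fit, such as all of dTg vs Ct. Of the clock calls, Per1 against Ct was lost in 15 of 28 alternatives and Arntl against dTg in 6 of 28. Nr1d2 and Cry1 against Ct were lost in 3 and 2 of 28, and Cry2 in 0 of 28 in either comparison. For the other named genes the counts kept, gained and lost were 811, 19 and 94. Their least steady calls were Rorb against Ct (17 of 28 alternatives) and Hlf (14 of 28), Ciart and Rora (13 of 28 each) against dTg. Same-numbered libraries did not deviate together (correlations of -0.175 to 0.0846). These correlations run over many genes at once in libraries whose tissue marker sums differed, so they cannot settle whether the numbers pair the libraries. Under the block Per2 fell by 0.65 against Ct (adjusted p = 0.038), and the calls of Arntl against dTg and of Per1 against Ct were lost (adjusted p = 0.11 and 0.089). The differences of the 10 genes in the doxycycline comparisons stayed below 0 in all alternatives except that of Clock with the block against dTg and without dTgDox replicate 2.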
